A study of Homo sapiens with 12 samples.

Results

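The quantity described here is the difference between the effect of CsA at 48 h and its effect at 12 h in HK-2, a human cell line immortalized from the epithelium of the proximal tubule. It was taken over all 12 arrays of the series as CsA minus control at 48 h, less CsA minus control at 12 h, on the log2 scale, for 23671 probe sets with a log2 value above 4 on at least 3 arrays. The 4 groups held 3 arrays each: cells exposed to CsA for 12 h, their controls at 12 h, cells exposed to CsA for 48 h, and their controls at 48 h. CsA is read here as cyclosporin A. Controls received the vehicle, and all groups came from 1 cell line in 1 laboratory, grown with EGF, hydrocortisone and insulin. The study exposed HK-2 cells to compounds toxic to the kidney to find expression signatures of that toxicity, and these arrays address CsA at its 2 exposure times. Neither the dose nor the name of the vehicle is stated in the labels. The labels call the replicates biological without saying whether separate cultures or days stand behind them, so a p-value here measures the spread between these arrays. A positive difference means that the effect of CsA was more positive at 48 h than at 12 h, and a negative difference that it was more negative.

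Cyclosporin A binds cyclophilins, and the complex inhibits calcineurin. Its clinical use is limited by injury to the renal tubule. A cell under load in the endoplasmic reticulum (ER) induces chaperones of that compartment and, through the factor ATF4, genes for amino acid supply. Enzymes of sterol and fatty acid synthesis are controlled together by the SREBP factors, which leave the ER for the nucleus when membrane sterol is low.

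Arrays were tight at 12 h and wider at 48 h. The median SD of a probe set within a group was 0.117 for CsA and 0.116 for control at 12 h, against 0.223 for CsA and 0.168 for control at 48 h. Hybridization controls were low on 1 array, the third CsA replicate at 48 h, with a median of 7.38 (log2) where the rest had 9.89 to 11.4. Poly-A controls were low in replicate 1 of CsA (4.13) and of control (3.78) at 48 h, and between 8.26 and 9.99 elsewhere. Epithelial markers were present, with 4 of 5 above a log2 value of 4 on all arrays and CDH1 on none. Of the proximal tubule markers on the array, PAX8, CDH6 and CDH16 exceeded 4 on all arrays, and LRP2, CUBN, SLC34A1, AQP1, GGT1 and ANPEP on none. The 4 endothelial and 3 leukocyte markers on the array were under 4 throughout. Of 7 fibroblast markers 3 exceeded 4 on all arrays and 2 on none, and their mean level was 5.32 to 5.69 with CsA and 5.75 to 6.11 in control at 48 h, against 5.57 to 5.71 on the 12 h arrays. In RNA from whole cultures, fewer cells of a kind and less RNA per cell cannot be told apart.

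The effect of CsA differed between the times for 76 of 23671 probe sets, 0.321% (limma with Benjamini-Hochberg, adjusted p under 0.05). Of these, 16 were higher at 48 h (0.0676% of those tested) and 60 were lower (0.253%). With each array centred on its median the split was 11 higher and 21 lower, and after a further quantile normalization 27 higher and 58 lower. They carried 58 named genes, 8 higher and 50 lower, and 11 probe sets had no single symbol. SLC5A3, 1 of the 8 higher, and some unnamed probe sets met the filter only through CsA at 48 h, as given below. Without adjustment, p was under 0.05 for 3649 probe sets. The smallest difference past the threshold was 0.67 and the median was 1.246, on the log2 scale and without sign. With a 1.5-fold change counted as an effect, 73 of the 76 were late, present at 48 h and below that size at 12 h. Among all probe sets tested 14.4% were late, but the 76 were chosen for a difference between the times, so their share is a description. None was early and 1 reversed. The remaining 2, HMGCS1 and IDI1, were below that size at both times.

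At 48 h the CsA arrays lay outside the range of the controls for all 76, against 27.2% of all probe sets, and all 76 passed the test at 48 h, against 12.4% (4.49% higher, 7.87% lower). Those 48 h values enter the difference itself, and so do the 12 h values. The shares of the 76 at either time are therefore descriptions. At 12 h the arrays were separated for 19 of the 76, against 11.8% of all probe sets, and none passed the test there, where 1 probe set in all passed (0.00422%). That one belongs to DNAJB9, a co-chaperone of the ER, with effects of 1.13 at 12 h and 0.48 at 48 h and a difference of -0.65 (limma adjusted p = 0.112). Across all probe sets tested, 3413 had a late pattern by size, 139 an early pattern and 16 a reversing one.

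**Figure D1:**
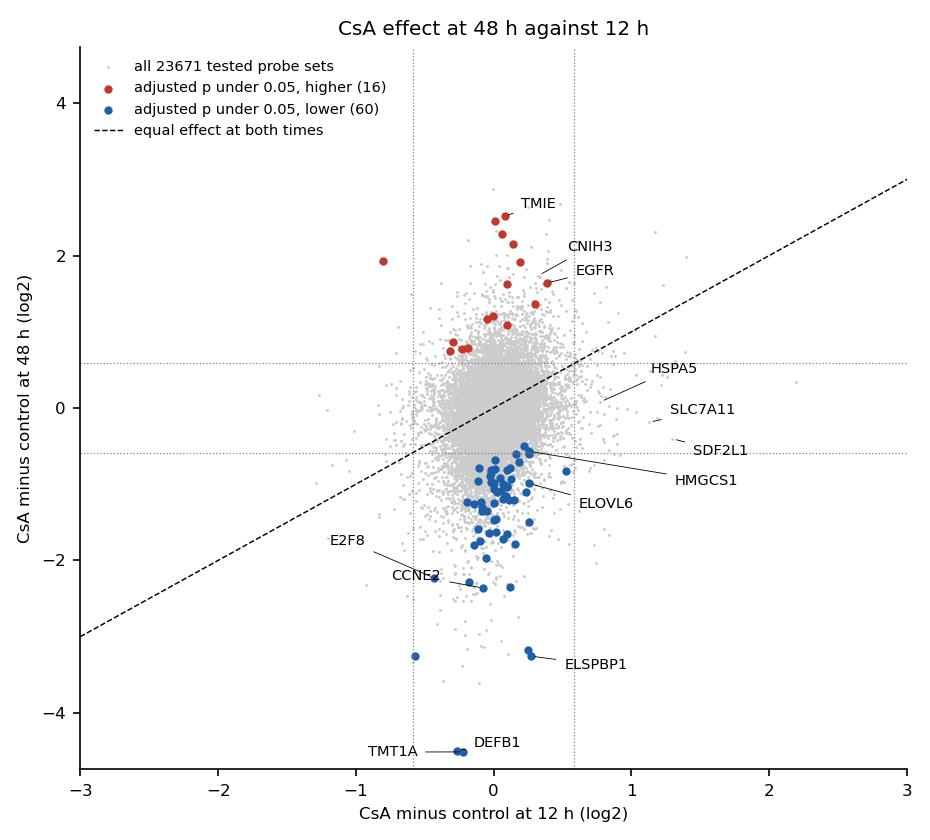
Each point is a probe set, with CsA minus control at 12 h on the horizontal axis and at 48 h on the vertical axis, both on the log2 scale. Dotted lines mark a 1.5-fold change and the dashed line equal effects. Of the 16 red and 60 blue points past the threshold, 75 lie inside the 1.5-fold lines at 12 h, where the largest effect is 0.80 without sign. They lie further from 0 at 48 h.

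The number past the threshold depended on which arrays entered the fit. It was 372, 503 and 406 without replicate 2 of CsA at 48 h, replicate 3 of CsA at 48 h and replicate 3 of control at 48 h, and each of these fits called all 76. It was 3 to 18 without any 1 of the other 9 arrays. The direction of all 76 was the same in each of these 12 fits. A probe set of CDH6 and 2 without a gene symbol passed in all 12, and 56 of the 76 passed in at most 3. Both unnamed probe sets exceeded log2 4 with CsA at 48 h alone, at 5.04 to 5.68 and at 4.16 to 4.38, and lay near background with little spread in the other groups. They thus met the filter only through the group where they were high. The fits with 1 array left out kept the filter of all 12 arrays. Without any 1 of those CsA arrays these 2 would not have met it, so their passing in all 12 fits is only a description. SLC5A3 and a further unnamed probe set among the higher calls also exceeded 4 with CsA at 48 h alone. They read 4.44 to 5.01 and 4.81 to 5.99 there, so their calls are likewise only descriptions. HMGCS1, ELOVL6, EGFR, PAX8, DEFB1 and TMIE each passed in 3 fits, those without replicate 2 or 3 of CsA or replicate 3 of control at 48 h.

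Most genes of sterol synthesis had values slightly above control at 12 h and below control at 48 h, and 3 of them passed the test of the difference. HMGCS1, the cytosolic enzyme that makes the mevalonate precursor HMG-CoA, read 11.82, 11.78 and 11.79 with CsA at 12 h and 11.49, 11.49 and 11.64 in the controls. By 48 h the values were 10.00, 10.16 and 10.04 with CsA and 10.59, 10.76 and 10.55 in the controls. CsA arrays thus lay above every control array at 12 h and below every one at 48 h. The effect was 0.26 at 12 h and -0.57 at 48 h, a difference of -0.82 (SE 0.12, limma adjusted p = 0.0369). A dimmer probe set of HMGCS1 had a difference of -1.52 with an SE of 1.27.

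ACAT2, the cytosolic thiolase at the start of the pathway, went from 0.18 to -0.71, a difference of -0.89 (SE 0.13, limma adjusted p = 0.0362). Its arrays overlapped the controls at 12 h (13.23, 13.31 and 13.36 against 13.04, 13.02 and 13.29). They were separated at 48 h (11.16, 11.04 and 11.07 against 11.87, 11.76 and 11.77). IDI1, which isomerizes isopentenyl diphosphate, went from 0.22 to -0.49, a difference of -0.72 (SE 0.12, limma adjusted p = 0.0441). It read 13.99, 13.96 and 14.15 with CsA and 13.80, 13.76 and 13.88 in the controls at 12 h, then 12.80, 12.74 and 12.70 with CsA and 13.29, 13.29 and 13.14 in the controls at 48 h. Of its other probe sets, 1 gave -0.69 and the 2 dimmer ones gave 0.19 and 0.22, so the probe sets of IDI1 disagreed.

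Over the list of cholesterol synthesis and uptake, with 1 probe set per gene, 22 genes were measured. ACAT2, HMGCS1 and IDI1 passed, all lower, and none passed higher. Over all 11154 genes, with 1 probe set each and the adjustment kept over all probe sets, 0.359% passed lower and 0.0269% higher. The difference was negative for 20 of the 22 and had a median of -0.48, against 51.1% and a median of -0.01 over all genes. Unadjusted p was under 0.05 for 12, all negative, where over all genes it was so for 9.84% with a negative and 6.52% with a positive difference. The median effect was 0.20 at 12 h, with 19 of 22 positive, and -0.22 at 48 h, with 17 of 22 negative.

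Arrays were fully separated at both times, above control at 12 h and below at 48 h, for 6 of the 22: HMGCS1, IDI1, INSIG1, MSMO1, SC5D and SQLE. Over all genes this held for 67 of 11154, 0.601%. INSIG1, which holds the SREBP escort protein in the ER when sterol is plentiful, went from 0.38 to -0.22, a difference of -0.60 (SE 0.15, limma adjusted p = 0.106). SC5D, a desaturase of late sterol synthesis, went from 0.25 to -0.21 (difference -0.47, SE 0.10, limma adjusted p = 0.0731). Neither passed the threshold. STARD4, a carrier of sterol between membranes, had effects of 0.53 and -0.31, and LSS, lanosterol synthase, of 0.41 and -0.20, again without passing. TM7SF2, a sterol reductase, differed in form, with 0.00 at 12 h and -1.16 at 48 h.

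The median of this list lay between -0.51 and -0.43 when each array was left out in turn. It was -0.48 without replicate 1 of both 48 h groups, where none of the 22 passed. Without replicate 3 of CsA at 48 h 5 passed, without replicate 2 of CsA 4 and without replicate 3 of control at 48 h 3. Without any 1 of the other 9 arrays none passed. Over all 23671 probe sets the calls without those replicates were 503, 372 and 406 in turn, against 76 with all arrays.

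The promoters of HMGCS1 and INSIG1 are shown because both genes had arrays separated in opposite directions at the 2 times. They hold the 250 bases before the start site from RefSeq, build GRCh38.p14, written 5′ to 3′ on the gene's strand, with CCAAT or its reverse complement in capitals. HMGCS1 has a further start site in that table, which is not shown.
HMGCS1, chr5:43313413-43313662, minus strand: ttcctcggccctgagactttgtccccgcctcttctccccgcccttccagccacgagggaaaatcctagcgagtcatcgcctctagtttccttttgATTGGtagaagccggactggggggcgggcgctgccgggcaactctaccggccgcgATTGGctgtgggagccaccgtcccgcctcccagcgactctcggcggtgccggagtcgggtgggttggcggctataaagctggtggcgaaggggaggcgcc
INSIG1, chr7:155297628-155297877, plus strand: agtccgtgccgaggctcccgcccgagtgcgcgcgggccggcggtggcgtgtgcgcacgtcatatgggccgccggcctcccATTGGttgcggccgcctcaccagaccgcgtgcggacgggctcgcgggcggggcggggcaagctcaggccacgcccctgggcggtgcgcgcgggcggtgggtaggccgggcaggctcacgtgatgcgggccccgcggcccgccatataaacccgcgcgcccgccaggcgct
HMGCS1 held CCAAT on the opposite strand at 155 to 151 and at 100 to 96 bases before the start, and INSIG1 at 170 to 166. CCAAT is the site of NF-Y, a general factor found in many promoters, and 32.0% of 35116 windows of this length held it on either strand. Of the 20 measured sterol genes with a window, 16 had it in at least 1 window. By window it was in 18 of their 26. The SREBP site searched, TCACNCCAC on either strand, was in 0.883% of windows, and among these genes in SREBF2 alone. Other forms of the site were not searched, so this count does not say that a promoter lacks SREBP sites.

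Among fatty acid genes 1 passed, also lower at 48 h. ELOVL6, which elongates long-chain fatty acids, read 9.90, 10.02 and 10.27 with CsA and 9.64, 9.86 and 9.92 in the controls at 12 h, where the groups overlapped. After 48 h the arrays gave 7.68, 7.79 and 7.86 with CsA and 8.82, 8.88 and 8.60 in the controls, and every CsA array was lower. The effect went from 0.25 to -0.99, a difference of -1.24 (SE 0.18, limma adjusted p = 0.0331). A second probe set of ELOVL6 also passed, with a difference of -1.75 (SE 0.26, limma adjusted p = 0.0368).

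Among the 24 measured genes of fatty acid synthesis and desaturation, ELOVL6 passed, lower, and none passed higher. The difference was negative for 21, with a median of -0.44, against 51.1% and a median of -0.01 over all genes. An unadjusted p under 0.05 was found for 9, all negative, against 9.84% of all genes with a negative difference. The median effect was 0.15 at 12 h and -0.20 at 48 h. SCD5, a stearoyl-CoA desaturase, had a difference of -1.39 (SE 0.29), LPIN1, a phosphatidate phosphatase, of -0.71 (SE 0.16), ACLY, which makes cytosolic acetyl-CoA, of -0.51 (SE 0.13) and PNPLA3, a lipid droplet lipase, of -1.26 (SE 0.37), none past the threshold. For LPIN1 the effect at 12 h was 0.47 and the CsA arrays lay above the controls. For SCD5 it was -0.06 and they overlapped. The list median ranged from -0.48 to -0.35 with 1 array left out. Past the threshold were 4 genes without replicate 3 of CsA at 48 h, and 2 without replicate 2 of CsA or replicate 3 of control at 48 h. None passed without any 1 of the other 9 arrays or without replicate 1 of both 48 h groups. Over all 23671 probe sets the calls without those single replicates were 503, 372 and 406 in turn, against 76 with all arrays.

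**Figure D2:**
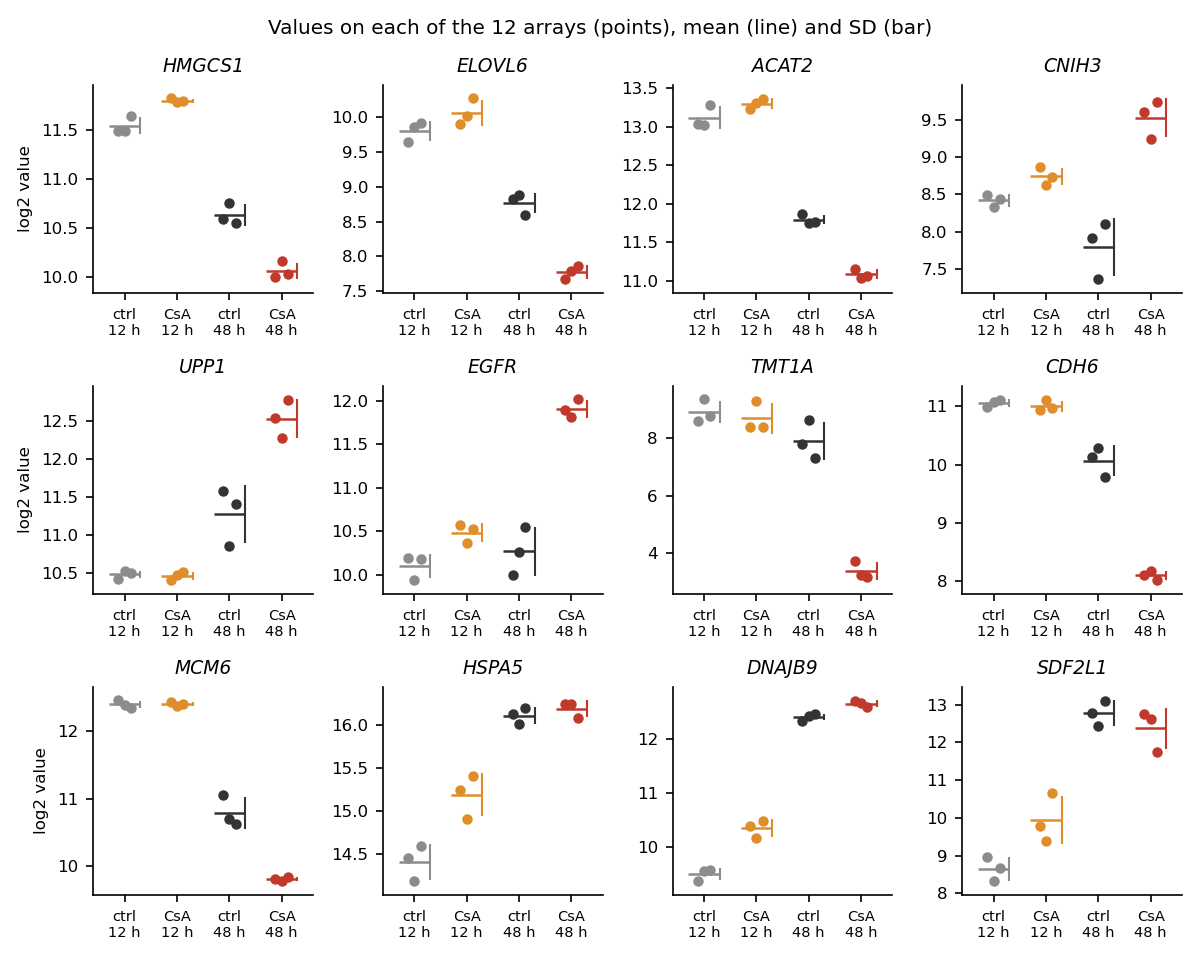
Log2 values of 12 genes on every array, by group, with the group mean as a horizontal line and the SD as a vertical bar. HMGCS1, ELOVL6 and ACAT2 lay below control with CsA at 48 h, CNIH3, UPP1 and EGFR lay above control at 48 h, and HSPA5, DNAJB9 and SDF2L1 were above control at 12 h, with effects of 0.08, 0.25 and -0.40 at 48 h.

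Among genes of DNA replication, 3 passed, all lower with CsA at 48 h. E2F8, a repressor of the E2F family made in S phase, read 8.22, 8.73 and 8.55 with CsA and 8.78, 9.05 and 8.97 in the controls at 12 h. At 48 h it read 5.28, 5.40 and 4.86 with CsA and 7.55, 7.39 and 7.29 in the controls. Every CsA array was below every control array at both times. The effects were -0.43 and -2.23, a difference of -1.80 (SE 0.23, limma adjusted p = 0.0221).

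MCM4 and MCM6, subunits of the replicative helicase, had effects of -0.01 and 0.00 at 12 h and of -0.98 each at 48 h. MCM6 read 12.42, 12.38 and 12.39 with CsA and 12.45, 12.38 and 12.35 in the controls at 12 h, a full overlap. It read 9.82, 9.78 and 9.84 with CsA and 11.06, 10.69 and 10.62 in the controls at 48 h. The differences were -0.98 for MCM6 (SE 0.15, limma adjusted p = 0.0386) and -0.97 for MCM4 (SE 0.15, limma adjusted p = 0.0379).

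CCNE2, cyclin E2 of the entry into S phase, passed in a probe set that was not the brightest of the gene. It read 9.71, 9.95 and 9.49 with CsA and 9.93, 9.62 and 9.82 in the controls at 12 h. By 48 h the values were 3.88, 3.41 and 3.29 with CsA, near background, and 5.67, 5.94 and 6.05 in the controls. The difference was -2.29 (SE 0.25, limma adjusted p = 0.0163), it passed in 8 of 12 fits with 1 array left out, and the brighter probe set gave -1.46 (limma adjusted p = 0.0837).

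Of 54 measured replication genes, E2F8, MCM4 and MCM6 passed, lower, and none passed higher. The difference was negative for 45, with a median of -0.56, against 51.1% and a median of -0.01 over all genes. An unadjusted p under 0.05 was found for 21, all negative, against 9.84% of all genes with a negative difference. MCM2, MCM3, MCM5 and MCM7, the remaining helicase subunits, had differences of -0.76, -0.90, -0.97 and -0.59, none past the threshold. RRM2, a subunit of ribonucleotide reductase, had -2.003 with an SE of 0.57. The level of these genes was lower at 48 h in the controls as well, with a median change from 12 h of -1.61 in control cells and -2.25 in CsA-treated cells. Without replicate 3 of CsA at 48 h, 14 genes passed and the median was -0.69. Without replicate 2 of CsA at 48 h 5 passed, without replicate 3 of control 4, without replicate 1 of control 1, and without any 1 of the other 8 arrays none. Over all 23671 probe sets the calls without those replicates were 503, 372, 406 and 18 in turn, against 76 with all arrays. Without replicate 1 of both 48 h groups none passed and the median was -0.29.

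All 49 mitotic genes had a negative effect at 12 h, with a median of -0.22, and their CsA arrays were below the controls for 25, against 6.51% of all genes. At 48 h the median was -0.61, and the arrays were separated below for 1, against 15.8% of all genes. The median difference of mitotic genes changed with the arrays used. None of 49 passed by limma, and 1 had an unadjusted p under 0.05 with a negative difference, against 9.84% of all genes. The difference was negative for 43, against 51.1% of all genes, and the list median was -0.41. That median was -1.19, with 18 genes past the threshold, in the fit that left out replicate 3 of CsA at 48 h, whose hybridization controls were low. That fit called 503 of all 23671 probe sets, against 76 with all arrays. The list median was 0.01 without replicate 2, -0.20 without replicate 1 of CsA at 48 h and -0.25 without replicate 1 of control at 48 h. The 7 measured histones of the replication-dependent kind all had a negative difference, with a median of -0.99. None passed, and 2 had an unadjusted p under 0.05, against 9.84% of all genes with a negative difference. Their median change from 12 h to 48 h was 0.91 in control cells and -0.31 in CsA-treated cells.

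Genes of other kinds were also among the largest late losses. TMT1A, a thiol methyltransferase of the ER membrane, read 8.37, 9.30 and 8.38 with CsA and 8.60, 9.33 and 8.76 in the controls at 12 h. After 48 h the arrays gave 3.73, 3.24 and 3.17 with CsA, all under 4, and 7.78, 8.61 and 7.30 in the controls. The difference was -4.30 (SE 0.51, limma adjusted p = 0.018), and it passed in 7 of 12 fits with 1 array left out. A dimmer probe set of the gene gave 0.08, so its probe sets disagreed, and their mean gave -2.11.

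DEFB1, the antimicrobial peptide beta-defensin, read 8.25, 9.31 and 9.18 with CsA and 8.64, 9.52 and 9.38 in the controls at 12 h. At 48 h it read 3.04, 4.09 and 2.89 with CsA against 7.31, 8.96 and 7.25, a difference of -4.23 (SE 0.71, limma adjusted p = 0.0441). HOXA-AS2, a long noncoding RNA of the HOXA cluster, had a difference of -3.42 (SE 0.57, limma adjusted p = 0.0441), and all its CsA arrays at 48 h were under 4. VASH2, a vasohibin that removes tyrosine from tubulin, read 6.32, 6.73 and 5.77 with CsA at 48 h against 8.64, 9.12 and 8.10, with an effect of 0.12 at 12 h and a difference of -2.47 (SE 0.38, limma adjusted p = 0.0386). GLT8D2, a predicted glycosyltransferase, had a difference of -2.10 (SE 0.33, limma adjusted p = 0.0386).

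Genes of the tubule epithelium went both ways. CDH6, a cadherin of proximal tubule cells, was the named gene whose call held in all 12 fits with 1 array left out; it was chosen for description after its values were seen. It read 10.93, 11.11 and 10.97 with CsA and 10.99, 11.07 and 11.11 in the controls at 12 h. By 48 h the values were 8.11, 8.18 and 8.03 with CsA and 10.14, 10.29 and 9.78 in the controls. The difference was -1.91 (SE 0.17, limma adjusted p = 0.0062). A brighter probe set gave -1.25 (SE 0.14, limma adjusted p = 0.0163), and all 6 probe sets of CDH6 were negative. TINAG, a basement membrane glycoprotein of the tubule, had a difference of -1.95 (SE 0.34, limma adjusted p = 0.0499).

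PAX8, a transcription factor of the renal epithelium, moved the other way. It read 11.18, 11.12 and 11.24 with CsA and 11.11, 11.07 and 11.07 in the controls at 12 h, and 12.07, 11.72 and 11.91 with CsA and 10.82, 10.65 and 10.96 in the controls at 48 h. The difference was 0.99 (SE 0.15, limma adjusted p = 0.0386), and all 8 probe sets of PAX8 were positive. Of 12 measured proximal tubule genes, PAX8 passed higher and CDH6 lower. The median difference was -0.91, and 9 were negative, against -0.01 and 51.1% over all genes. SLC2A2, a glucose transporter, had -3.21 (SE 0.68), CLDN2, a claudin of leaky epithelia, -3.03 (SE 0.81) and SLC4A4, the basolateral bicarbonate transporter, -1.69 (SE 0.34), none past the threshold. The list median stayed between -1.01 and -0.75 with 1 array left out. Past the threshold were 3 genes without replicate 2 or replicate 3 of CsA at 48 h, and 5 without replicate 3 of control at 48 h. At most 1 passed without any of the other 9 arrays, and none without replicate 1 of both 48 h groups. Over all 23671 probe sets the calls without those single replicates were 372, 503 and 406 in turn, against 76 with all arrays. VCAN, a matrix proteoglycan chosen after its values were seen, passed in 3 probe sets, with differences of -1.47 to -1.64.

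**Figure D3:**
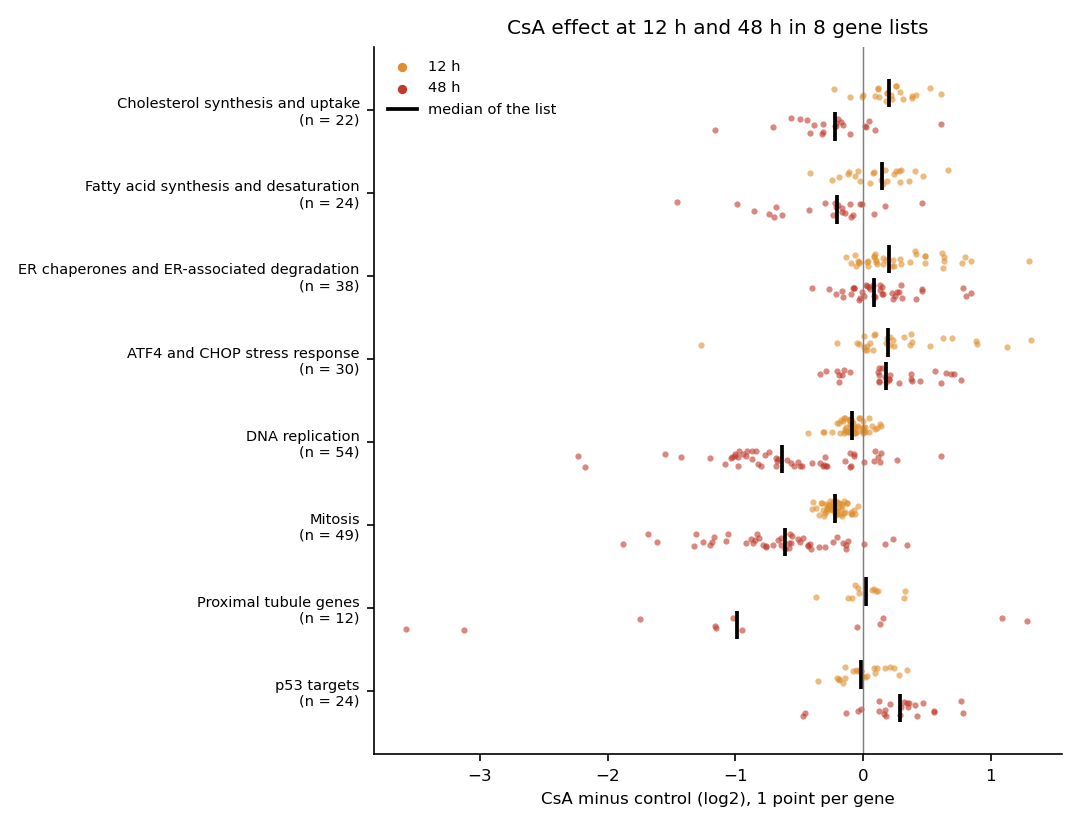
The effect of CsA (log2) in 8 gene lists, with 1 point per gene at 12 h in orange and at 48 h in red, and the median as a black bar. The median of the sterol list is 0.20 at 12 h and -0.22 at 48 h, while the medians of the replication and proximal tubule lists lie near 0 at 12 h and at -0.63 and -0.98 at 48 h.

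Fewer genes became higher late. EGFR, the receptor for EGF, which is in the medium of all groups, read 10.57, 10.37 and 10.52 with CsA and 10.19, 9.94 and 10.18 in the controls at 12 h. After 48 h the arrays gave 11.89, 11.81 and 12.02 with CsA and 9.99, 10.26 and 10.55 in the controls. CsA arrays were higher at both times, and the effect went from 0.38 to 1.64, a difference of 1.255 (SE 0.20, limma adjusted p = 0.0397). All 5 probe sets of EGFR were positive, from 0.33 to 1.255, and their mean gave 0.70, which did not pass. TMIE, known from the mechanotransduction complex of hair cells, was under 4 on all 12 h arrays and read 7.57, 6.90 and 7.71 with CsA at 48 h against 4.86, 4.53 and 5.24. Its difference was 2.44 (SE 0.30, limma adjusted p = 0.018), while its other probe set gave 0.34 and the mean of both 1.39, which did not pass.

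ACTR5, a subunit of the INO80 chromatin remodeller, passed in both of its probe sets, with differences of 1.06 (SE 0.17, limma adjusted p = 0.0431) and 1.53 (SE 0.25, limma adjusted p = 0.0441). PHYKPL, an enzyme of hydroxylysine breakdown, went from -0.29 to 0.86, a difference of 1.16 (SE 0.15, limma adjusted p = 0.0188). ETS2, a transcription factor, went from -0.23 to 0.78 (difference 1.01, SE 0.17, limma adjusted p = 0.0452), with CsA arrays below the controls at 12 h and above them at 48 h. ABTB1, an ankyrin repeat protein, went from -0.19 to 0.79 in the probe set that passed (difference 0.97, SE 0.16, limma adjusted p = 0.0431). Its brighter probe set went from 0.17 to 1.24 without passing, so the opposite effect at 12 h was not shared. CsA arrays were below the controls at 12 h and above them at 48 h in 4 of the 76 probe sets, and the reverse held in 9, among them HMGCS1, IDI1 and the brighter probe set of CDH6. Over all genes by their brightest probe set the shares were 0.654% and 0.601%, but both times enter the difference that chose the 76.

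CNIH3 and UPP1 were late and higher in size without passing over all probe sets. CNIH3, a cornichon protein that escorts glutamate receptors, read 8.86, 8.63 and 8.74 with CsA and 8.49, 8.33 and 8.43 in the controls at 12 h. At 48 h it read 9.61, 9.24 and 9.74 with CsA and 7.92, 7.36 and 8.10 in the controls, separated at both times. The difference was 1.41 (SE 0.26, limma adjusted p = 0.0579). UPP1, uridine phosphorylase, read 10.40, 10.47 and 10.50 with CsA and 10.42, 10.52 and 10.49 in the controls at 12 h, and 12.55, 12.28 and 12.78 with CsA and 11.58, 10.85 and 11.41 in the controls at 48 h. Its difference was 1.27 (SE 0.25, limma adjusted p = 0.0661). Among 24 measured targets of p53, which responds to damaged DNA, none passed by limma, and 6 had an unadjusted p under 0.05, all positive. Over all genes 6.52% had such a p with a positive difference. The median difference of the p53 targets was 0.31 with 18 positive, against -0.01 and 48.9% over all genes.

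Several ER chaperones and genes of ATF4 were early by size, and none passed the test of the difference. HSPA5, the main chaperone of the ER lumen, read 15.24, 14.91 and 15.40 with CsA and 14.45, 14.18 and 14.59 in the controls at 12 h. By 48 h the values were 16.23, 16.24 and 16.07 with CsA and 16.12, 16.002 and 16.19 in the controls. The groups were separated at 12 h and overlapped at 48 h. The effect went from 0.78 to 0.08, a difference of -0.69 (SE 0.20, limma adjusted p = 0.151). DNAJB9, a co-chaperone of HSPA5, went from 0.84 to 0.25, a difference of -0.60 (SE 0.14, limma adjusted p = 0.0998). It read 10.40, 10.17 and 10.48 with CsA and 9.37, 9.56 and 9.58 in the controls at 12 h, and 12.69, 12.66 and 12.58 with CsA and 12.33, 12.42 and 12.45 in the controls at 48 h. CsA arrays of DNAJB9 were higher at both times.

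These genes were also higher at 48 h than at 12 h in the controls. From 12 h to 48 h the level of HSPA5 went up by 1.70 in control cells and by 1.00 in CsA-treated cells, and that of DNAJB9 by 2.89 and 2.30. SDF2L1, an ER protein of the same chaperone complex, read 8.96, 8.33 and 8.67 in the controls at 12 h and 12.79, 12.44 and 13.11 at 48 h, a change of 4.13. With CsA it read 9.80, 9.39 and 10.65 and then 12.77, 12.61 and 11.75, a change of 2.43. Its effect went from 1.30 to -0.40 (difference -1.70, SE 0.50, limma adjusted p = 0.157).

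Of 38 measured genes of ER chaperones and ER-associated degradation none passed, and 7 had a negative and 2 a positive difference at an unadjusted p under 0.05. Over all genes the shares at that p were 9.84% and 6.52%. Of these 38, 8 were early by size, against 55 of 11154 genes in all, and in control cells 37 had a higher mean at 48 h than at 12 h, with a median change of 0.94. At 12 h the CsA arrays were above the controls for 20 of them, against 6.53% of all genes, and at 48 h for 6, against 13.9%, a share close to that of all genes. The list median of the difference was -0.06 and moved between -0.17 and 0.03 with 1 array left out. Over all arrays 22 of 38 were negative, against 51.1% of all genes. EDEM2, which takes misfolded glycoproteins to degradation, had a difference of 0.84 (SE 0.25), from -0.06 at 12 h to 0.78 at 48 h. HERPUD1, of the degradation complex, had -0.79 (SE 0.21) and MANF, a secreted stress protein, -0.88 (SE 0.27).

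In the ATF4 and CHOP stress response, none of 30 passed by limma, and 2 had a positive and 2 a negative difference at an unadjusted p under 0.05. Those counts are close to or below the shares over all genes. By size 6 of the 30 were early, against 55 of 11154 genes in all. CHAC1, which breaks down glutathione, read 6.13, 5.84 and 7.07 with CsA and 5.23, 5.05 and 4.82 in the controls at 12 h. After 48 h the arrays gave 8.94, 9.23 and 9.10 with CsA and 8.30, 8.67 and 8.62 in the controls, higher in every CsA array at both times. Its effect was 1.31 and then 0.56 (difference -0.75, SE 0.38, limma adjusted p = 0.373). DDIT3, the factor CHOP, went from 0.70 to 0.28 (difference -0.42, SE 0.37), and TRIB3, a pseudokinase, from 0.52 to 0.38 (difference -0.14, SE 0.17). SLC7A11, the cystine transporter, went from 1.13 to -0.19, a difference of -1.32 (SE 0.33, limma adjusted p = 0.112). SLC3A2, its partner chain, went from 0.09 to 0.76, a difference of 0.67 (SE 0.18, limma adjusted p = 0.119). NUPR1, a stress-induced nuclear protein, had an effect of -1.27 at 12 h and 0.17 at 48 h (difference 1.44, SE 0.48). Its CsA arrays at 12 h were under 4. Of the 55 genes early by size, 40 were higher and 15 lower with CsA at 12 h. Among them 13 belonged to these 2 lists, which hold 67 of the 11154 genes.

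The promoters of HSPA5 and CHAC1 are shown as those of genes early by size in each arm of this response, in the same form. Neither gene passed the test of the difference. The effect of CHAC1 at 48 h, 0.56, lay just under the 1.5-fold size (0.585 on the log2 scale). Capitals in HSPA5 mark the ER stress response element, CCAAT and CCACG with 9 bases of any kind between them, and in CHAC1 the C/EBP-ATF element TGATGNAAN, here on the opposite strand.
HSPA5, chr9:125241344-125241593, minus strand: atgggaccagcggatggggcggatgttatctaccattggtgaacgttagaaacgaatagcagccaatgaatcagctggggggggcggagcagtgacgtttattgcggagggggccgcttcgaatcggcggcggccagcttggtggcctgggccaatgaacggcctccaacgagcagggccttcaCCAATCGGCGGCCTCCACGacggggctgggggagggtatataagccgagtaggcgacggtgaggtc
CHAC1, chr15:40953221-40953470, plus strand: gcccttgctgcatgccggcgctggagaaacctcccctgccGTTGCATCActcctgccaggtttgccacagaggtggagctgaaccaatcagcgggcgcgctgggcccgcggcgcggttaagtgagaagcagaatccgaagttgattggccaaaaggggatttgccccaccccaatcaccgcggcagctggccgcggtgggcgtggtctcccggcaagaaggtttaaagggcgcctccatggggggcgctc
The element of HSPA5 lay at 66 to 48 bases before the start and that of CHAC1 at 210 to 202. The ER stress response element was in 0.074% of all windows, and in 8 of the 43 windows of the chaperone genes. By gene it was in 7 of the 35 with a window, CALR, CANX, CRELD2, ERO1B, HSP90B1, HSPA5 and PDIA6. The C/EBP-ATF element was in 3.13% of all windows, and in 5 of the 37 windows of the ATF4 genes. By gene it was in 5 of the 25 with a window, ASNS, ATF3, CEBPG, CHAC1 and HERPUD1. DNAJB9 and SDF2L1, both early by size, were not among those with the ER stress element in this window. Matches describe the letters and say nothing about binding.

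Far more probe sets differed between the times than between CsA and control. The arrays with low hybridization or poly-A controls were all at 48 h. Time in culture and array handling thus cannot be told apart here. From 12 h to 48 h, 8802 probe sets (37.2%) changed in control cells and 11035 (46.6%) in CsA-treated cells (limma with Benjamini-Hochberg, adjusted p under 0.05). In control cells 19.9% were higher and 17.3% lower at 48 h, and in CsA-treated cells 23.5% and 23.1%. For the 76 probe sets, the difference also equals the change over time with CsA less that in controls. By the 1.5-fold size, 30 changed with CsA alone, 5 in controls alone, 37 in both in the same direction, 2 in opposite directions and 2 in neither. In all 37 that moved the same way, the CsA-treated cells moved further. The 76 were chosen by this same difference between the arms, so these counts are descriptions. The change of HMGCS1 was -0.91 in controls and -1.73 with CsA, and that of CCNE2 was -3.90 and -6.19. ELSPBP1, a sperm-binding protein of the epididymis, was the named case of opposite change by size, at 2.88 in controls and -0.64 with CsA. Its difference was -3.53 (SE 0.59, limma adjusted p = 0.0446). The change with CsA alone did not pass (limma adjusted p = 0.236). Those arrays read 4.10, 5.37 and 4.14 at 12 h and 4.14, 4.42 and 3.13 at 48 h, near a log2 value of 4 and overlapping. The change of ETS2 was -1.23 in controls and -0.22 with CsA.

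**Figure D4:**
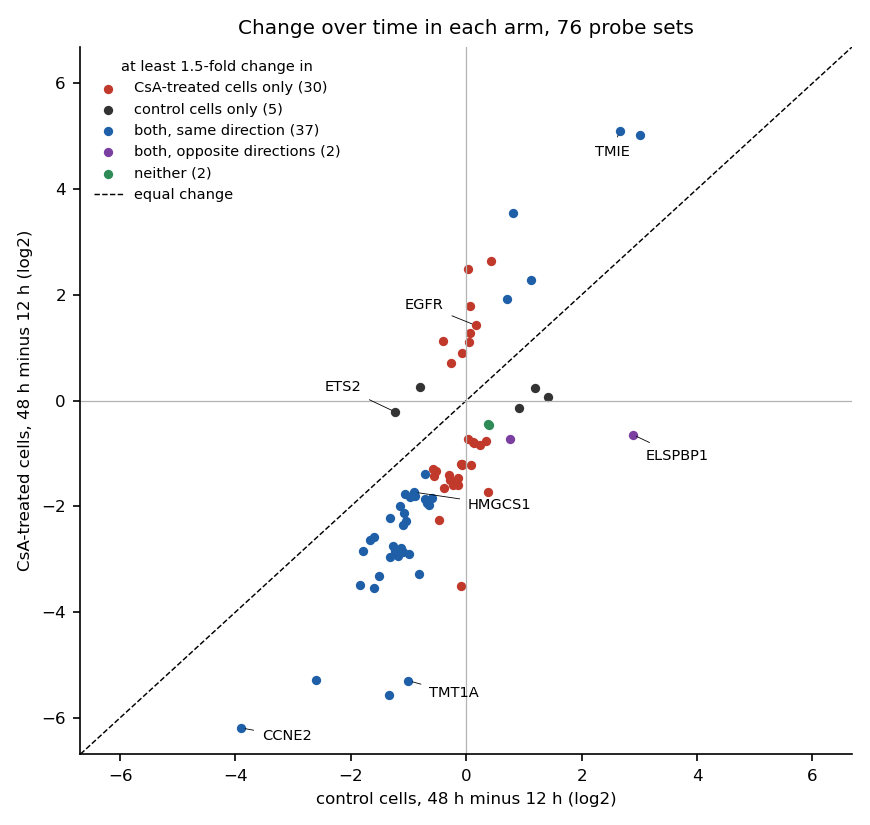
Change from 12 h to 48 h (log2) in control cells on the horizontal axis and in CsA-treated cells on the vertical axis, for the 76 probe sets past the threshold, coloured by which arm changed at least 1.5-fold. All 37 points that moved the same way in both arms lie further from 0 for CsA-treated cells. The points were chosen by the difference between these changes, so this is a description.

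Genes of CsA's own targets showed no difference past the threshold, which 0.359% of all genes passed lower and 0.0269% higher. With so few genes, no call is close to those shares. Of 16 measured cyclophilins, 1 had a positive and 2 a negative difference at an unadjusted limma p under 0.05. Of 13 measured genes of calcineurin and NFAT, 1 had a positive one. Over all genes the shares at that p were 6.52% and 9.84%. PPIA, cyclophilin A, had a difference of -0.11 (SE 0.10, limma adjusted p = 0.663), PPIB, cyclophilin B of the ER, of 0.08 (SE 0.19), PPP3CA, the catalytic chain of calcineurin, of -0.18 (SE 0.22) and RCAN1, a calcineurin regulator and target, of -0.41 (SE 0.20, limma adjusted p = 0.373). Without replicate 3 of CsA at 48 h the value for PPIB was -0.05. KLF4, a transcription factor, was higher at both times, with effects of 1.23 and 1.61 and a difference of 0.38 (SE 0.43, limma adjusted p = 0.717).

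A single probe set reversed by size. It has no gene symbol in the platform annotation and read 3.61, 3.74 and 3.43 with CsA and 4.26, 4.47 and 4.45 in the controls at 12 h. At 48 h it read 6.82, 7.03 and 7.60 with CsA and 4.86, 5.62 and 5.15 in the controls. The effect went from -0.80 to 1.94, a difference of 2.74 (SE 0.31, limma adjusted p = 0.0166), with the 12 h values under or near 4.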

How the data were processed

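RNA from 12 samples of HK-2 cells was hybridized to 1-colour Affymetrix arrays of 54675 probe sets. The deposited table holds log2 values per probe set that the authors made with GCRMA, per the submitters' processing notes, with version and settings not given in the sources used here. GCRMA shrinks dim probe sets towards background and thus understates folds there. The values were used without further normalization, 62 control probe sets were left out, and 23671 probe sets above log2 4 on at least 3 arrays were tested. Of these, 20625 carried 1 gene symbol in GEO's platform annotation, 1029 several and 2017 none. Of 66 array pairs none was identical.

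A model of 4 group means was fitted over all 12 arrays with limma 3.58.1 in R 4.3.3, with empirical Bayes moderation and no covariate. The contrast was CsA minus control at 48 h less that at 12 h, with Benjamini-Hochberg adjustment over all probe sets and a threshold of 0.05. The step was tested on simulated data. Classes by size used a 1.5-fold effect. Lists used the brightest probe set of each of 11154 genes, and a gene's other probe sets are given where they disagree. Promoters came from RefSeq, GRCh38.p14.

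Named genes were HMGCS1, ELOVL6, CNIH3 and UPP1; then, among called probe sets with 1 symbol and a highest group mean of at least 6, the 8 largest positive and 8 largest negative differences and the 5 largest of each class and direction; then up to 4 members of each list with at least 3 past the threshold; and HSPA5, DNAJB9, DDIT3, CHAC1, TRIB3, INSIG1, KLF4, PPIA, PPIB, PPP3CA and RCAN1, with some items of this rule not reported here. Other members of the lists are given as examples of their list, chosen after their values were seen. Members and lists were chosen with earlier results of these data known. Alternatives changed the filter, normalization, weights, priors, probe set rule, replicate block and arrays. The number of arrays limits the precision.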

Additional observations from a re-analysis of the deposited data

Results flagged for a closer look

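The effect of CsA differed between 12 h and 48 h by the test of the difference itself in 76 probe sets. The adjusted p-values of named genes among them (limma, Benjamini-Hochberg over all probe sets) were as follows. In lipid synthesis they were 0.0331 for ELOVL6, 0.0362 for ACAT2, 0.0369 for HMGCS1 and 0.0441 for IDI1, all with a lower effect at 48 h. In replication and the entry into S phase they were 0.0163 for CCNE2, 0.0221 for E2F8, 0.0379 for MCM4 and 0.0386 for MCM6, also lower. Among the largest late losses they were 0.018 for TMT1A, 0.0386 for VASH2, 0.0386 for GLT8D2, 0.0441 for DEFB1, 0.0441 for HOXA-AS2, 0.0446 for ELSPBP1 and 0.0499 for TINAG. Among the genes higher at 48 h they were 0.018 for TMIE, 0.0188 for PHYKPL, 0.0386 for PAX8, 0.0397 for EGFR, 0.0431 for ACTR5, 0.0431 for ABTB1 and 0.0452 for ETS2. CDH6 and VCAN, described above after their values were seen, are also among the 76, CDH6 at 0.0062. TINAG lies closest to the threshold.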

How the results depend on the processing

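All 76 probe sets past the threshold kept their direction in each alternative fitted on probe sets, except that 67 were tested with the filter above log2 6. The fits with 1 value per gene were not compared in this way. Their number did not hold, and the cause was not tested. Against 76 (16 higher, 60 lower, 73 late), it was 125 with 1 probe set per gene and the adjustment over genes (25, 100, 117), 125 above log2 6 (101 lower, 117 late), 1351 with array weights (334, 1017, 997) and 154 with trend and robust priors (27, 127, 144). It was 32 with each array centred on its median (21 lower, 31 late), 41 without a filter (9, 32, 33) and 6 without replicate 1 of both 48 h groups (2, 4, 5), and 27 were higher after a further quantile normalization. With 1 array left out it ranged from 3 to 503, with 2 to 110 higher, 1 to 424 lower and 3 to 440 late.

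Early calls, 0 here, were 1 above log2 6, 7 with array weights, 1 with group weights, 1 with trend and robust priors and 0 to 4 with 1 array left out. The reversing count of 1 became 0 with 1 probe set per gene, with the mean of a gene's probe sets or with 2-fold as the effect size, 2 with a size below 1.5-fold, 6 with array weights, and 0 to 4 with 1 array left out. The single call at 12 h became 2 with array weights, group weights or trend and robust priors, and 0 with median centring, quantile normalization, the mean of probe sets, no filter, either block or without replicate 1 of both 48 h groups. It was 0 or 1 with 1 array left out. The 2926 calls at 48 h became 1795 with 1 probe set per gene, 1636 with the mean of probe sets, 747 with group weights, 1747 without a filter, 687 without replicate 1 of both 48 h groups and 1013 to 3594 with 1 array left out.

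Replicate numbers are shared across groups but nothing in the labels ties them, and same-numbered CsA and control arrays had deviations that correlated at 0.37 to 0.54 at 12 h and at -0.15 to 0.31 at 48 h. With a replicate block over all arrays the number was 449 (83 higher, 366 lower, 411 late, 2 early, 3 reversing), and with a block within each time 271 (60, 211, 260, 1 and 3). The first held all 76, and the second 59, without MCM4, ETS2, ABTB1, GLT8D2 and both probe sets of ACTR5 among others. Of 863 alternative values for named genes, 577 stayed on the same side of the threshold, 262 lost it, 24 gained it and none that was called changed sign. Depth is not measured on arrays. Dim probe sets near log2 4 and the wider 48 h groups limit what 3 arrays a group can show.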
